A study of Homo sapiens with 16 samples.

Results

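The genes described are 10 heat shock proteins and partners of the cytosol and mitochondria, chosen by symbol out of the 42351 genes in the table: HSPA1A, HSPA1B, HSPA8, HSP90AA1, HSPH1, DNAJB1, HSPE1, HSPD1, HSPB1 and BAG3. All 10 were found under their symbols, and all 10 were among the 15067 genes tested. Libraries were made from 2 lung cancer lines after 0, 3, 6 or 12 h of hepatocyte growth factor (HGF), the ligand of the MET receptor. A549, an adenocarcinoma line, stands for wt MET, and NCI-H596, an adenosquamous line whose MET transcript skips exon 14 in the receptor's juxtamembrane part, stands for MET∆14. All 8 conditions were deprived of serum before HGF and had 2 biological replicates, so there were 16 libraries, and the labels name no other treatment. The labels and the study's text give different lengths for the serum deprivation. Each MET status was represented by 1 cell line, so that line and MET status cannot be told apart, and only 0 h lacked HGF, so that time in culture and HGF cannot be told apart. The labels name A549 as the wt MET line of these libraries, whereas the study's text abbreviates another lung line as wild type.

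Heat shock proteins are molecular chaperones that bind unfolded or partly folded proteins. HSF1, the heat shock factor, is their main transcriptional activator. It binds heat shock elements, promoter sequences built of the unit GAA repeated in alternating orientation. In the cytosol, HSPA8 is the constitutive HSP70 and HSPA1A and HSPA1B encode the stress-inducible HSP70. J-domain proteins such as DNAJB1 deliver clients to HSP70 and stimulate its ATPase. HSPH1, of the HSP110 family, and BAG3 act as nucleotide exchange factors of HSP70. HSP90AA1 encodes the inducible cytosolic HSP90, which completes the maturation of kinases and receptors, among them many growth factor receptors. HSPD1 (HSP60) and HSPE1 (HSP10) are the barrel and the lid of the mitochondrial chaperonin. HSPB1 (HSP27) is a small heat shock protein that holds unfolded proteins and binds actin filaments.

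Promoters are shown for 5 of the genes because they hold, for the main families, the letters of a heat shock element, either GAANNTTC or TTCNNGAA. Each of these motifs is its own reverse complement, so a match is the same on both strands, and neighbouring matches can overlap by the shared GAA or TTC. RefSeq windows of 250 bases before to 50 after the start site were found for 10 of the 10 genes (14 windows, GRCh38.p14), and 8 windows, from 7 genes, held a match, against 13.5% of 35116 promoters of the same length. Capitals mark the matches in the windows, which read 5′ to 3′ on the strand of the gene.
HSPA1A (chr6:31815293-31815592, plus strand): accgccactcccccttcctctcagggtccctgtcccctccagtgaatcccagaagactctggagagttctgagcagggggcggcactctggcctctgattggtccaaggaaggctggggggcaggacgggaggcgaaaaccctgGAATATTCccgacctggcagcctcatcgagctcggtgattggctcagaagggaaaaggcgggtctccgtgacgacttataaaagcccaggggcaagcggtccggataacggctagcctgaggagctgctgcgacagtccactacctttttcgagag
HSPA8 (chr11:123062087-123062386, minus strand): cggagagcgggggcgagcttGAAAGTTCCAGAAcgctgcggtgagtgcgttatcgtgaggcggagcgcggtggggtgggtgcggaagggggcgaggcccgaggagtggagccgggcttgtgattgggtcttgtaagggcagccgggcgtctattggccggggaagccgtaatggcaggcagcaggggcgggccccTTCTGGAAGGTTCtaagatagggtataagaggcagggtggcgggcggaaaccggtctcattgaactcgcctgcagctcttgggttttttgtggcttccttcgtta
DNAJB1 (chr19:14518348-14518647, minus strand): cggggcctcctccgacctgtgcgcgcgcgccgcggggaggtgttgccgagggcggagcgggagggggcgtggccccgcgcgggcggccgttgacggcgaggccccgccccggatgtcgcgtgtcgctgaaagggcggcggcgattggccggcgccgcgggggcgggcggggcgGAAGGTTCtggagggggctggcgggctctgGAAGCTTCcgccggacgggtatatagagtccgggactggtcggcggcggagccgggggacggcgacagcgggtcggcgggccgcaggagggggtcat
HSP90AA1 (chr14:102086995-102087294, minus strand): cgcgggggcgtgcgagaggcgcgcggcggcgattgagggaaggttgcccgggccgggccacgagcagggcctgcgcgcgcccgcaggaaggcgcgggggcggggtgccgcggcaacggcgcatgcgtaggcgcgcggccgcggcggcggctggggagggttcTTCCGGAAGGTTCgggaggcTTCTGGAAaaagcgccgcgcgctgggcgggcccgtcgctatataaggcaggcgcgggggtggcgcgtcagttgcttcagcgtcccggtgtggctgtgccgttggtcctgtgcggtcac
HSPD1 (chr2:197499791-197500090, minus strand): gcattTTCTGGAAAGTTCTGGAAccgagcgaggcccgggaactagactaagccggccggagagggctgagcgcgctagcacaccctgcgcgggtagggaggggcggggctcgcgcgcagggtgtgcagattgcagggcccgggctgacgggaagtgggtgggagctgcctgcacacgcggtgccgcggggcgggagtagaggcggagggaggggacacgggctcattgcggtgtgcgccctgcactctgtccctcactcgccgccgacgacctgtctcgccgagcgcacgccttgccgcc
The match of HSPA1A began 106 bases before the start site, and HSPA1B had the same 8 letters 105 bases before its own. HSPA8 held 2 runs of overlapping matches, which began at -230 and -55 from the start site. HSP90AA1 held matches at -88, -83 and -68, of which the first and second overlap, in 1 of its 2 windows. DNAJB1 held matches at -77 and -47 in the window shown, and another window of it held 1 match that began 1 base after the start site. The HSPD1 matches formed a run of 18 bases (chr2:197500068-197500085). Runs of 3 alternating units, which join both motifs, were in the windows of HSPA8, HSP90AA1 and HSPD1, and in 0.49% of all promoters on either strand. HSPB1 had 1 match, at -182. No window of HSPH1, HSPE1 or BAG3 held these letters. HSPE1 and HSPD1 lie head to head on chromosome 2, with start sites 105 bases apart, or 539 for the HSPD1 start whose window is shown. The near end of the HSPD1 run of matches lies 294 bases before the HSPE1 start, outside the HSPE1 window.

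Between 10158590 and 23909304 counts per library fell on genes, and expression is given in CPM, the count in 1000000 counts of the library as scaled by TMM, unless it is said to be per length. Log2 changes are given ± SE. The members reached means of up to 2617 CPM. Replicates differed most for MET∆14 at 12 h (chi-square of their counts per degree of freedom 36.1) and for wt MET at 0 h (10.4), and least for wt MET at 6 h (2.85). The keratins KRT8 and KRT18 were at 358 CPM or more in every library, whereas the epithelial markers EPCAM (0.868 to 2.97 CPM) and CDH1 (2.54 to 12.6 CPM) were low in wt MET cells and higher in MET∆14 cells (24.4 to 37.4 and 80.7 to 124.5 CPM). Of 6 markers of other cell types, the immune markers PTPRC and CD3E had at most 2 counts in any library, and the endothelial marker PECAM1 at most 37. The collagen gene COL1A1 was at 10.8 to 19.1 CPM in wt MET and 15.9 to 33.3 CPM in MET∆14 libraries. Summed over the 6, the level was 11.9 to 19.5 CPM in wt MET libraries. In MET∆14 libraries the sum was 32.3 to 35.3 CPM at 0 h, 25.2 to 28.8 at 3 h, 17.9 to 18.9 at 6 h and 16.6 to 28.6 at 12 h, and the part of this in the results for MET∆14 cells was not tested. MET itself was lower in MET∆14 cells at 0 h (369.5 and 370.3 against 1206 and 1275 CPM; log2 change -1.75 ± 0.089, adjusted p = 6.92e-11 in edgeR's quasi-likelihood test). Gene counts do not show whether exon 14 was present. Adjusted p-values judge a difference against the spread between replicate libraries of these lines, and do not speak for other lines. A gene is called when its adjusted p is under 0.05.

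Before HGF the lines differed most in the cytosolic chaperones HSPB1, HSPA1A, HSPA1B and HSPA8. Levels of different genes are compared per length (RPKM, from the length of the canonical transcript, mean ± SD of 2 libraries). HSPB1 was the highest member in MET∆14 cells, with 673 ± 32.2 RPKM (SD, n = 2). It was followed by HSPA8 (486 ± 25.3), HSP90AA1 (405 ± 12.2), HSPA1A (302 ± 11.9), HSPD1 (262 ± 10.4) and HSPA1B (227 ± 7.26). The lowest there were HSPE1 (212 ± 15.6), DNAJB1 (70.0 ± 0.473), HSPH1 (25.8 ± 1.202) and BAG3 (24.3 ± 0.985). The order was different in wt MET cells, where the mitochondrial pair led, with HSPD1 at 407 ± 19.3 RPKM and HSPE1 at 228 ± 21.5. HSP90AA1 (169 ± 16.9), HSPA8 (78.0 ± 13.2), DNAJB1 (43.1 ± 0.830) and BAG3 (37.0 ± 0.130) came next. HSPB1 (30.6 ± 2.19), HSPH1 (21.7 ± 0.967), HSPA1A (16.5 ± 3.03) and HSPA1B (13.4 ± 0.184) were the lowest. Among neighbours in these orders, HSPA1B and HSPE1 overlapped between libraries in MET∆14 cells, and so did HSPH1 and BAG3. The other neighbours did not overlap in either line. The order rests on 1 transcript length per gene and is a description.

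**Figure D1:**
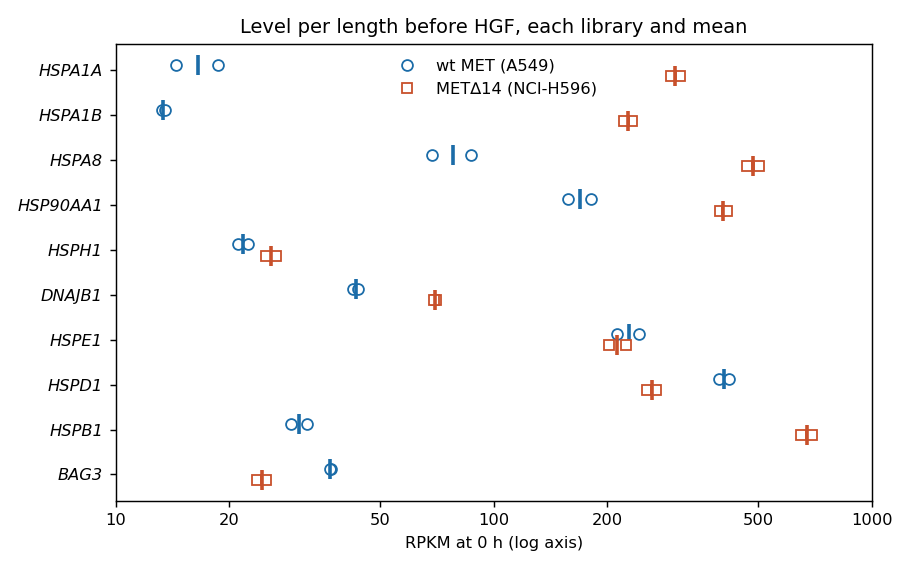
Level of each gene at 0 h per length, in RPKM on a log axis, with 1 open symbol per library (circles, wt MET; squares, MET∆14) and a bar at the mean of the 2 libraries. HSPA1A, HSPA1B, HSPA8 and HSPB1 are far to the right in MET∆14 cells, HSPE1 overlaps between the lines, and HSPD1 and BAG3 are higher in wt MET cells.

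Between the lines at 0 h, 9 of the 10 members were called (7 higher and 2 lower in MET∆14 cells), which has to be read against 80.2% of all genes tested (40.6% higher, 39.6% lower). HSPB1 was 22.0-fold higher in MET∆14 cells (541 and 505 against 24.96 and 22.6 CPM; log2 change 4.46 ± 0.16, adjusted p = 1.99e-12). The inducible HSP70 genes followed, with HSPA1A 18.3-fold (log2 change 4.19 ± 0.14, adjusted p = 6.75e-13) and HSPA1B 17.0-fold higher (log2 change 4.09 ± 0.11, adjusted p = 1.06e-13). HSPA8 was 6.23-fold higher (log2 change 2.64 ± 0.14, adjusted p = 7.03e-11), HSP90AA1 2.39-fold and DNAJB1 1.62-fold (adjusted p = 5.13e-09 and 1.69e-06). In the other direction, HSPD1 was 1.56-fold and BAG3 1.52-fold lower in MET∆14 cells (adjusted p = 4.35e-06 and 2.97e-06). HSPH1 differed by 1.19-fold (log2 change 0.25 ± 0.083, adjusted p = 0.0124), and its call was lost without wt MET 0 h replicate 1 (0.20) or MET∆14 0 h replicate 2 (0.22). HSPE1 was not called (log2 change -0.10 ± 0.097, adjusted p = 0.346). The median log2 difference of the 10 members was 0.98, against 0.015 over all genes tested. Other chaperone genes, from the lists described below, more often went the other way. Of 77 tested, 20 were called higher and 47 lower in MET∆14 cells at 0 h, with a median log2 difference of -0.45.

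After HGF, HSPA8, HSPH1 and HSP90AA1 rose in both lines. DNAJB1 rose in both at 3 h, but in MET∆14 cells it was not called at 6 h and was called lower at 12 h. The mitochondrial pair HSPD1 and HSPE1 rose in MET∆14 cells and was not called in wt MET cells. In wt MET cells both were called lower at 6 h when either MET∆14 12 h library was left out. In wt MET cells, 5 members were called at 3 h, all higher, against 17.4% of all genes tested (10.3% higher, 7.16% lower). At 6 h, 4 were higher and 2 lower, against 34.2% of all genes (16.4% higher, 17.8% lower). At 12 h, 2 were higher and 0 lower, against 35.1% of all genes (16.9% higher, 18.2% lower). The count at 12 h was 1 without wt MET 0 h replicate 1 or either wt MET 12 h library, and 4 without MET∆14 12 h replicate 1. In MET∆14 cells, 7 members were higher and 1 lower at 3 h, against 31.7% of all genes (15.5% higher, 16.1% lower). At 6 h, 6 were higher and 2 lower, against 44.1% (21.6% higher, 22.5% lower). The counts at 12 h were 6 higher and 3 lower, against 38.3% (18.3% higher, 20.1% lower). The 3 h count of 8 was 5 without MET∆14 0 h replicate 1 or 3 h replicate 1, and 4 without MET∆14 0 h replicate 2 or 3 h replicate 2. Over the 3 times together, 7 members changed in wt MET cells (40.3% of all genes) and 9 in MET∆14 cells (54.1%). The median log2 fold change of the members was 0.36, -0.064 and -0.027 at 3, 6 and 12 h in wt MET cells, where the medians over all genes were -0.044, -0.053 and -0.0019. In MET∆14 cells it was 0.32, 0.37 and 0.31, against -0.053, -0.039 and -0.024 over all genes. The comparisons of 1 line share its 0 h libraries.

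**Figure D2:**
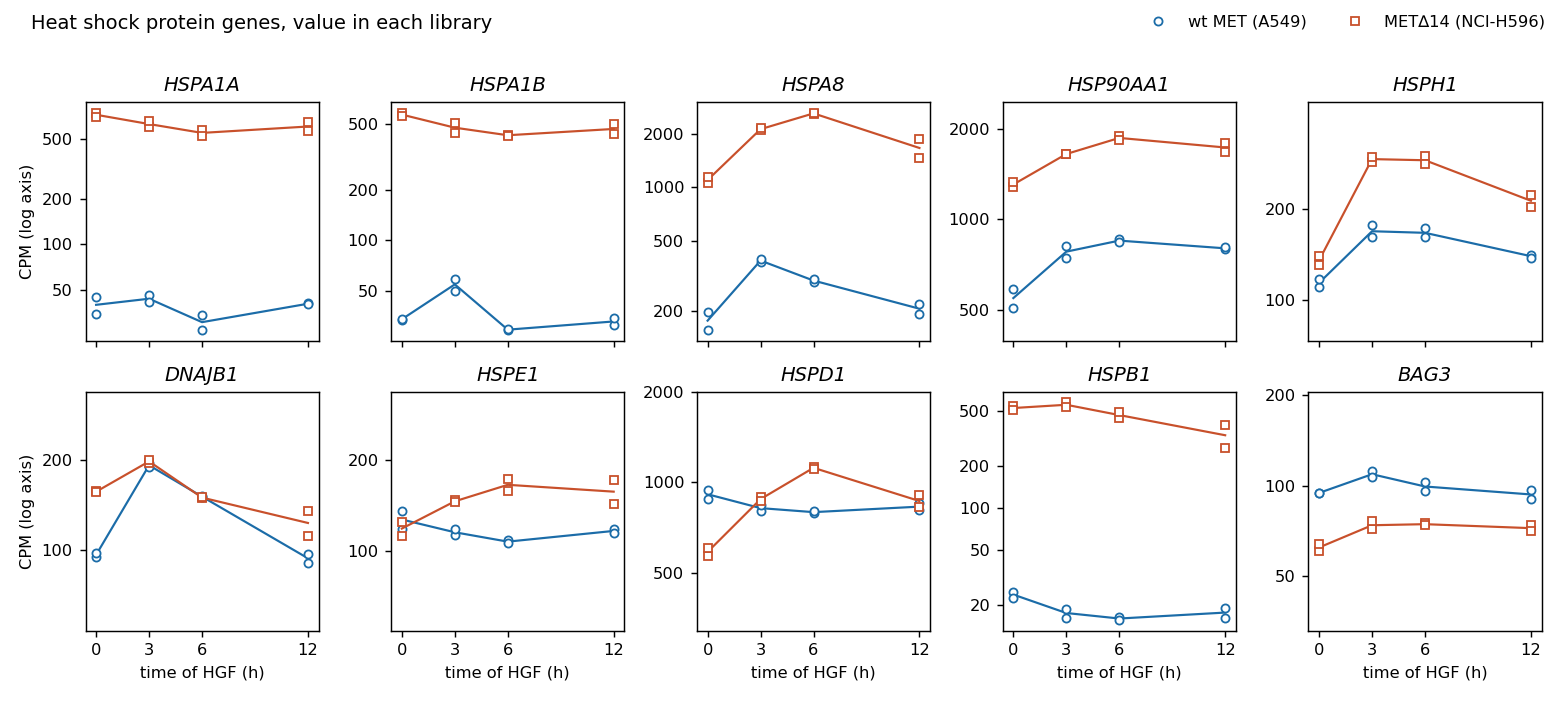
CPM of each member (log axes, each with its own range) in every library against hours of HGF, with 1 panel per gene, points for the libraries and lines through the means of the 2 replicates in wt MET and MET∆14 cells. HSPA8 peaks in wt MET cells at 3 h (379.9 and 392 CPM) and in MET∆14 cells at 6 h (2603 and 2632 CPM), and HSPD1 climbs to 1128 and 1109 CPM in MET∆14 cells.

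HSPA8 (ENSG00000109971; chr11:123057489-123063230, minus strand), the constitutive HSP70, had the largest fitted rise of any member at a single time in each line. This order was not tested. DNAJB1 was close in wt MET cells at 3 h (log2 change 0.99), and in MET∆14 cells HSPH1 rose more than HSPA8 at 3 h (1.12) and 12 h (0.66). In wt MET cells the HSPA8 libraries held 198 and 156 CPM at 0 h, 379.9 and 392 at 3 h, 291 and 304 at 6 h and 193 and 219.7 at 12 h. All libraries at 3 and 6 h were above both 0 h libraries, whereas 12 h overlapped 0 h. The rise was 2.18-fold at 3 h (log2 change 1.13 ± 0.13, adjusted p = 2.79e-05) and 1.69-fold at 6 h (log2 change 0.75 ± 0.13, adjusted p = 0.000416), and the 12 h difference was not called (log2 change 0.22 ± 0.13, adjusted p = 0.198). It was 0.41 without wt MET 0 h replicate 1 and 0.059 without replicate 2, and it was called without MET∆14 12 h replicate 1 (0.22). In MET∆14 cells the values were 1059 and 1141 CPM at 0 h, 2101 and 2162 at 3 h, 2603 and 2632 at 6 h and 1457 and 1881 at 12 h. Every library with HGF was above both 0 h libraries, with the highest values at 6 h. The rise was 1.94-fold at 3 h (log2 change 0.95 ± 0.13, adjusted p = 4.01e-05), 2.38-fold at 6 h (log2 change 1.25 ± 0.13, adjusted p = 1.87e-06) and 1.52-fold at 12 h (log2 change 0.60 ± 0.13, adjusted p = 0.00166). The 12 h value was 0.39 without MET∆14 12 h replicate 2, still called. From 6 to 12 h HSPA8 fell in both lines, by 0.53 on the log2 scale in wt MET cells (adjusted p = 0.0146) and by 0.65 in MET∆14 cells (adjusted p = 0.00292). The fall in wt MET cells lost its call without wt MET 6 h replicate 1 (-0.59), wt MET 6 h replicate 2 (-0.52) or wt MET 12 h replicate 1 (-0.47). An unnamed gene on the opposite strand covers 11.4% of the HSPA8 exons in GENCODE v44, and whether strand was used in counting is not given in the sources used here.

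HSPA1A (ENSG00000204389; chr6:31815543-31817946, plus strand) and HSPA1B (ENSG00000204388; chr6:31827738-31830254, plus strand) encode the inducible HSP70. Their longest open reading frames share 1922 of 1926 bases (99.8%), so the split of reads between them is uncertain. HSPA1A took 41.3% to 57.4% of the counts of the pair in wt MET libraries and 55.3% to 57.5% in MET∆14 libraries. In wt MET cells HSPA1B had 33.3 and 33.9 CPM at 0 h, 50.01 and 58.9 at 3 h, 28.8 and 29.4 at 6 h and 31.1 and 34.1 at 12 h. The 3 h libraries were above and the 6 h libraries below both at 0 h. The rise at 3 h was 1.62-fold (log2 change 0.69 ± 0.11, adjusted p = 0.000365), while 6 h was not called (log2 change -0.21 ± 0.11, adjusted p = 0.161). HSPA1A had 44.9 and 34.6 CPM at 0 h, 45.8 and 41.4 at 3 h, 34.1 and 26.9 at 6 h and 40.6 and 40.2 at 12 h. Its 3 h and 0 h libraries overlapped (log2 change 0.14 ± 0.13, adjusted p = 0.539). Its lower value at 6 h was called (log2 change -0.38 ± 0.14, adjusted p = 0.0419), but the call was lost when any 1 library other than wt MET 0 h replicate 2, wt MET 6 h replicate 1, MET∆14 12 h replicate 1 or MET∆14 12 h replicate 2 was left out (log2 change -0.36 to -0.18), or with DESeq2's size factors (-0.36).

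In MET∆14 cells both genes were at their highest before HGF. HSPA1A had 746 and 706 CPM at 0 h, 601 and 658 at 3 h, 572 and 528 at 6 h and 568 and 645 at 12 h. HSPA1B had 584 and 558 CPM at 0 h, 445 and 507 at 3 h, 431 and 427 at 6 h and 437 and 499 at 12 h. For each gene, every library with HGF was below both 0 h libraries. At 6 h HSPA1A fell by 0.40 and HSPA1B by 0.41 on the log2 scale (SE 0.12 and 0.095, adjusted p = 0.0136 and 0.00258), and the HSPA1A call was lost without MET∆14 0 h replicate 1 (-0.37) or MET∆14 6 h replicate 2 (-0.35). HSPA1A at 12 h was not called (log2 change -0.26 ± 0.12, adjusted p = 0.102), except without MET∆14 12 h replicate 2 (-0.37), or with HSPA1A and HSPA1B summed (-0.27). HSPA1B was also called at 12 h (log2 change -0.29 ± 0.095, adjusted p = 0.0268), a call lost without MET∆14 0 h replicate 1 (-0.26), MET∆14 0 h replicate 2 (-0.32) or MET∆14 12 h replicate 1 (-0.20), or with each line fitted alone (-0.25). The call of HSPA1B at 3 h (log2 change -0.26 ± 0.095, adjusted p = 0.0485) was lost when any 1 library other than MET∆14 3 h replicate 2, MET∆14 12 h replicate 1 or MET∆14 12 h replicate 2 was left out (log2 change -0.29 to -0.16), or with DESeq2's size factors (-0.24), with DESeq2 (-0.24), with no expression filter (-0.25), with each line fitted alone (-0.21) or with HSPA1A and HSPA1B summed (-0.23). Summed over both genes, which does not depend on the split, the pair was at 78.1 and 68.5 CPM at 0 h, 95.8 and 100.3 at 3 h, 62.9 and 56.3 at 6 h and 71.7 and 74.3 at 12 h in wt MET cells. With MET∆14, the sum was 1329.7 and 1264 CPM at 0 h, 1046 and 1166 at 3 h, 1003 and 955 at 6 h and 1005 and 1144 at 12 h. The log2 fold change of the sum in wt MET cells was 0.42 ± 0.10 (adjusted p = 0.0109) at 3 h, -0.30 ± 0.10 (adjusted p = 0.0378) at 6 h and -0.0069 ± 0.10 (adjusted p = 0.985) at 12 h. With MET∆14, it was -0.23 ± 0.098 (adjusted p = 0.0887) at 3 h, -0.41 ± 0.098 (adjusted p = 0.0035) at 6 h and -0.27 ± 0.098 (adjusted p = 0.0394) at 12 h. An unnamed gene of the same strand covers 36.6% of the HSPA1B exons in GENCODE v44 and has no row in the table.

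Among the partners of HSP70, HSPH1 (ENSG00000120694; chr13:31134973-31162388, minus strand) rose at every time in both lines. Its values in wt MET cells were 110.2 and 117 CPM at 0 h, 161 and 177 at 3 h, 173 and 161 at 6 h and 141 and 138 at 12 h. The MET∆14 libraries held 131 and 139.7 CPM at 0 h, 288 and 299.5 at 3 h, 299.9 and 282 at 6 h and 223 and 203 at 12 h. The libraries with HGF did not overlap those at 0 h in either line. In wt MET cells the log2 fold changes were 0.57 ± 0.084 (adjusted p = 0.000238) at 3 h, 0.55 ± 0.083 (adjusted p = 0.00014) at 6 h and 0.30 ± 0.083 (adjusted p = 0.0126) at 12 h. The 12 h call was lost without wt MET 0 h replicate 1 (0.25), wt MET 12 h replicate 1 (0.27) or wt MET 12 h replicate 2 (0.31). With MET∆14, they were 1.12 ± 0.083 (adjusted p = 1.37e-07), 1.11 ± 0.083 (adjusted p = 8.38e-08) and 0.66 ± 0.083 (adjusted p = 2.36e-05), which is 2.17-fold at 3 h. From 6 to 12 h HSPH1 fell by 0.45 in MET∆14 cells (adjusted p = 0.00199).

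DNAJB1 (ENSG00000132002; chr19:14514769-14560391, minus strand), the J-domain protein, was at its highest at 3 h in both lines. With wt MET, it had 95.4 and 98.0 CPM at 0 h, 195 and 189 at 3 h, 150.5 and 152 at 6 h and 97.2 and 91.2 at 12 h. The 3 and 6 h libraries were above 0 h and the 12 h libraries overlapped it. It rose 1.99-fold at 3 h (log2 change 0.99 ± 0.085, adjusted p = 1.51e-06), was still 1.56-fold higher at 6 h (log2 change 0.64 ± 0.085, adjusted p = 4.44e-05), and was not called at 12 h (log2 change -0.037 ± 0.085, adjusted p = 0.788). With MET∆14, the values were 158 and 156 CPM at 0 h, 195 and 200.2 at 3 h, 149 and 151 at 6 h and 112 and 135 at 12 h. The 3 h libraries were above and the 6 and 12 h libraries below both 0 h libraries. The rise at 3 h was 1.26-fold (log2 change 0.33 ± 0.083, adjusted p = 0.00625), with the call lost without MET∆14 0 h replicate 2 (0.33) or MET∆14 3 h replicate 2 (0.32). The 6 h difference was not called (log2 change -0.065 ± 0.083, adjusted p = 0.562). At 12 h DNAJB1 fell by 0.35 (SE 0.084, adjusted p = 0.00427), by 0.22 without MET∆14 12 h replicate 1, and the call was lost with each line fitted alone (-0.31). TECR, on the opposite strand, covers 6.41% of the DNAJB1 exons.

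BAG3 (ENSG00000151929; chr10:119651380-119677819, plus strand), which links HSP70 to small heat shock proteins and selective autophagy, had the smallest of the called rises. Its values were 94.9 and 94.5 CPM at 0 h, 112 and 107 at 3 h, 95.7 and 103 at 6 h and 90.5 and 96.7 at 12 h in wt MET cells, and no time was called (adjusted p from 0.0756 to 0.895). Its 3 h difference was called without MET∆14 12 h replicate 1 (0.21) or MET∆14 12 h replicate 2 (0.23), or with DESeq2 (0.22) or with each line fitted alone (0.23). With MET∆14, they were 60.6 and 64.1 CPM at 0 h, 71.7 and 76.2 at 3 h, 74.9 and 74.1 at 6 h and 73.8 and 70.7 at 12 h, with every library with HGF above both 0 h libraries. The rise was 1.19-fold at 3 h (adjusted p = 0.024), 1.195-fold at 6 h (adjusted p = 0.0135) and 1.16-fold at 12 h (adjusted p = 0.0402). The 3 h call was lost without MET∆14 0 h replicate 1 (0.21), MET∆14 0 h replicate 2 (0.29) or MET∆14 3 h replicate 2 (0.20), or with no expression filter (0.26). The 6 h call was lost without MET∆14 0 h replicate 1 (0.21), MET∆14 6 h replicate 1 (0.24) or MET∆14 6 h replicate 2 (0.26). At 12 h it was lost when any 1 library other than wt MET 0 h replicate 1, wt MET 0 h replicate 2 or MET∆14 12 h replicate 2 was left out (log2 change 0.17 to 0.25), or with no expression filter (0.22) or with each line fitted alone (0.25).

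HSP90AA1 (ENSG00000080824; chr14:102080742-102139699, minus strand), the inducible cytosolic HSP90, rose at every time in both lines. With wt MET, the libraries held 508 and 586 CPM at 0 h, 746 and 815 at 3 h, 857 and 842 at 6 h and 795 and 806 at 12 h. The MET∆14 values were 1278 and 1334 CPM at 0 h, 1651 and 1647 at 3 h, 1897 and 1834 at 6 h and 1677 and 1791 at 12 h. All libraries with HGF were above both 0 h libraries of their line. The log2 fold changes at 3, 6 and 12 h were 0.51 ± 0.092 (adjusted p = 0.00121), 0.64 ± 0.092 (adjusted p = 9.91e-05) and 0.55 ± 0.092 (adjusted p = 0.000345) in wt MET cells. With MET∆14, they were 0.34 ± 0.091 (adjusted p = 0.0107), 0.51 ± 0.091 (adjusted p = 0.000331) and 0.41 ± 0.091 (adjusted p = 0.00253). The 3 h call was lost without MET∆14 0 h replicate 1 (0.31), MET∆14 3 h replicate 1 (0.34) or MET∆14 3 h replicate 2 (0.34). Unlike HSPA8, HSPH1 and DNAJB1, it had no called step from 6 to 12 h in either line.

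The mitochondrial chaperonin rose in MET∆14 cells. HSPD1 (ENSG00000144381; chr2:197486584-197516737, minus strand), the barrel subunit, was at 883 and 944 CPM at 0 h, 803 and 841 at 3 h, 791 and 802 at 6 h and 809.7 and 853 at 12 h in wt MET cells, and all libraries with HGF were below those at 0 h. None of these differences was called (log2 fold change -0.15, -0.20 and -0.14, adjusted p = 0.24, 0.0831 and 0.228), but the lower value at 6 h was called without MET∆14 12 h replicate 1 (-0.20) or MET∆14 12 h replicate 2 (-0.18), or with each line fitted alone (-0.17). With MET∆14, HSPD1 was at 571 and 604 CPM at 0 h, 892 and 869 at 3 h, 1128 and 1109 at 6 h and 829 and 906 at 12 h. Every library with HGF was above both at 0 h. It rose 1.499-fold at 3 h (log2 change 0.58 ± 0.084, adjusted p = 8.48e-05), 1.91-fold at 6 h (log2 change 0.93 ± 0.085, adjusted p = 5.77e-07) and 1.48-fold at 12 h (log2 change 0.56 ± 0.084, adjusted p = 0.000111). The level at 6 h was above that at 3 h by 0.35 (adjusted p = 0.0163), which was not called without MET∆14 3 h replicate 1 (0.35), MET∆14 3 h replicate 2 (0.32), MET∆14 6 h replicate 1 (0.32) or MET∆14 6 h replicate 2 (0.35), or with each line fitted alone (0.33). The 12 h level was lower than that at 6 h by 0.37 (adjusted p = 0.00782), not called without MET∆14 6 h replicate 1 (-0.35) or MET∆14 6 h replicate 2 (-0.37), or with each line fitted alone (-0.37). HSPD1 started lower in MET∆14 cells than in wt MET cells, and its libraries were above those of wt MET at 3 h (892 and 869 against 803 and 841 CPM) and 6 h (1128 and 1109 against 791 and 802 CPM).

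HSPE1 (ENSG00000115541; chr2:197500140-197503449, plus strand), the lid subunit, rose with HSPD1 in MET∆14 cells, by smaller steps. With wt MET, it was at 118 and 135 CPM at 0 h, 112 and 118 at 3 h, 108 and 106 at 6 h and 118 and 115 at 12 h, and no time was called (adjusted p from 0.0652 to 0.361). The lower value at 6 h was called without wt MET 0 h replicate 1 (-0.34), MET∆14 12 h replicate 1 (-0.24) or MET∆14 12 h replicate 2 (-0.22), or with each line fitted alone (-0.22). With MET∆14, it was at 124 and 112 CPM at 0 h, 147 and 145 at 3 h, 173 and 158 at 6 h and 142.7 and 171 at 12 h. Every library with HGF was again above both at 0 h. It rose 1.23-fold at 3 h (adjusted p = 0.0263), 1.40-fold at 6 h (log2 change 0.48 ± 0.096, adjusted p = 0.000832) and 1.32-fold at 12 h (adjusted p = 0.0039). The 3 h call was lost without MET∆14 0 h replicate 2 (0.23), MET∆14 3 h replicate 1 (0.30) or MET∆14 3 h replicate 2 (0.31), or with each line fitted alone (0.35). The 12 h call was lost without MET∆14 0 h replicate 2 (0.33), and the 12 h log2 change was 0.26 without MET∆14 12 h replicate 2. The HSPE1 exons share 10.53% of their length with the read-through gene HSPE1-MOB4 and 7.41% with HSPD1 on the opposite strand. HSPE1-MOB4 held counts equal to 14.99% to 24.3% of those of HSPE1 in wt MET libraries and 6.7% to 11.5% in MET∆14 libraries. With the 2 genes summed, the HSPE1 log2 fold change at 6 h in MET∆14 cells was 0.47.

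HSPB1 (ENSG00000106211; chr7:76302673-76304295, plus strand), the small heat shock protein, had the largest difference between the lines at 0 h and fell late in MET∆14 cells. With wt MET, it was at 24.96 and 22.6 CPM at 0 h, 18.8 and 16.2 at 3 h, 16.3 and 15.6 at 6 h and 19.1 and 16.2 at 12 h, and all libraries with HGF were below both at 0 h. The 6 h difference was called (log2 change -0.57 ± 0.17, adjusted p = 0.0157), and that call was lost without wt MET 0 h replicate 1 (-0.50), wt MET 6 h replicate 1 (-0.58) or wt MET 6 h replicate 2 (-0.52). The 3 and 12 h differences missed the threshold (-0.44 and -0.42, adjusted p = 0.0888 and 0.0573). The 3 h difference was called without MET∆14 12 h replicate 1 (-0.43) or MET∆14 12 h replicate 2 (-0.41), or with no expression filter (-0.41) or with each line fitted alone (-0.42). That at 12 h was called without MET∆14 12 h replicate 1 (-0.42) or MET∆14 12 h replicate 2 (-0.42), or with no expression filter (-0.43) or with each line fitted alone (-0.40). With MET∆14, HSPB1 was at 541 and 505 CPM at 0 h, 573 and 530.4 at 3 h, 444 and 487 at 6 h and 271 and 395 at 12 h. The 3 h libraries overlapped those at 0 h, and the 6 and 12 h libraries were below both. The 6 h difference was not called (log2 change -0.17 ± 0.13, adjusted p = 0.339), except without MET∆14 12 h replicate 2 (-0.18). At 12 h HSPB1 fell by 0.65 (SE 0.14, adjusted p = 0.00156). The value was -0.41 without MET∆14 12 h replicate 1 and -0.96 without replicate 2, both called. The step from 6 to 12 h was -0.49 (adjusted p = 0.0229), or -0.78 without MET∆14 12 h replicate 2, and was not called without MET∆14 6 h replicate 1 (-0.54), MET∆14 6 h replicate 2 (-0.41) or MET∆14 12 h replicate 1 (-0.24), or with each line fitted alone (-0.48).

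**Figure D3:**
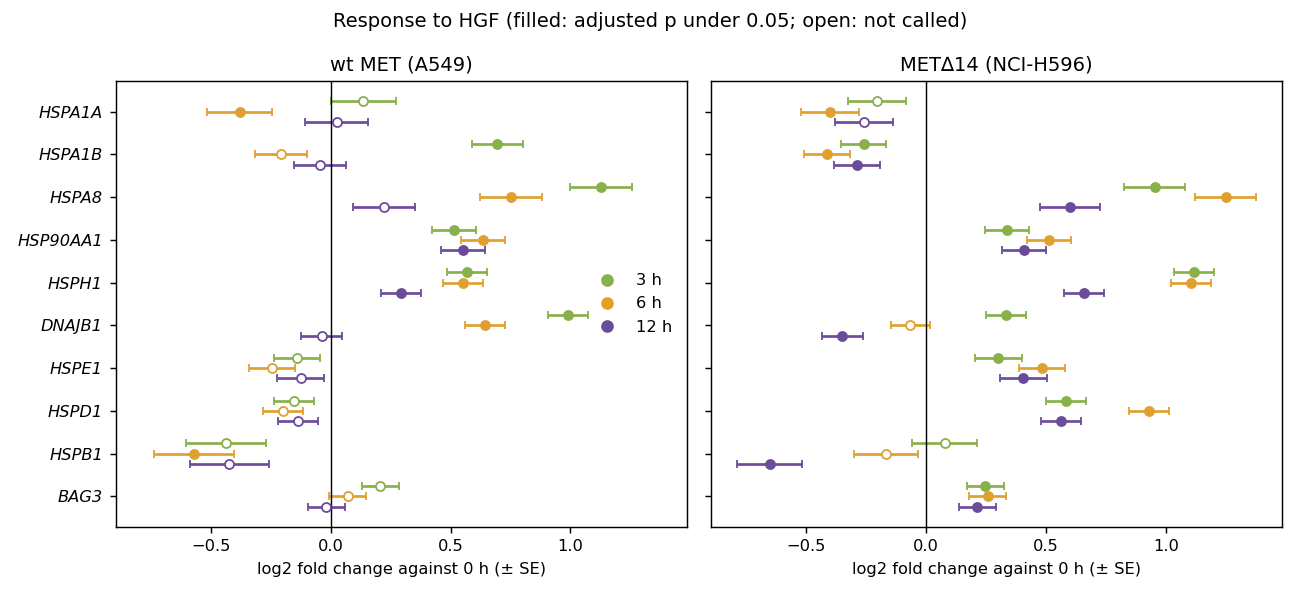
Log2 fold change of each member from 0 h at 3, 6 and 12 h of HGF, with bars of ± SE, in wt MET cells (left) and MET∆14 cells (right) on a shared scale; filled symbols mark adjusted p under 0.05. HSPD1 and HSPE1 lie left of 0 with open symbols in wt MET cells and right of 0 with filled symbols in MET∆14 cells, while HSPA8, HSPH1 and HSP90AA1 lie right of 0 in both.

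The difference between the responses of the lines was tested directly. Over the 3 times together, 7 of 10 members were called, against 37.6% of all genes tested. The smallest adjusted p was that of HSPD1 (3.55e-05). Its response in MET∆14 cells exceeded that in wt MET cells by 0.74 ± 0.12 (adjusted p = 0.000552) on the log2 scale at 3 h, 1.13 ± 0.12 (adjusted p = 6.79e-06) at 6 h and 0.70 ± 0.12 (adjusted p = 0.000633) at 12 h. HSPE1 (adjusted p = 0.00396) exceeded it by 0.44, 0.73 and 0.53 (SE 0.14, 0.14 and 0.14), all 3 called. The HSPE1 call at 3 h was lost when any 1 library other than wt MET 0 h replicate 1, MET∆14 12 h replicate 1 or MET∆14 12 h replicate 2 was left out (log2 change 0.32 to 0.50), or with DESeq2's size factors (0.45). That at 12 h was lost without wt MET 0 h replicate 2 (0.43) or MET∆14 0 h replicate 2 (0.46). HSPH1 rose more in MET∆14 cells at each time (0.55, 0.55 and 0.36, adjusted p = 0.00432, 0.00222 and 0.0344). The last of these calls was lost without wt MET 0 h replicate 2 (0.32), wt MET 12 h replicate 1 (0.39), wt MET 12 h replicate 2 (0.35), MET∆14 0 h replicate 1 (0.32) or MET∆14 0 h replicate 2 (0.42), or with no expression filter (0.37). The DNAJB1 response was lower in MET∆14 cells, with a difference of -0.66 ± 0.12 (adjusted p = 0.00133) at 3 h and -0.71 ± 0.12 (adjusted p = 0.000363) at 6 h. At 12 h it was not called (log2 change -0.31 ± 0.12, adjusted p = 0.0728), but was called without MET∆14 12 h replicate 2 (-0.46), and was -0.18 without replicate 1. HSPA1B differed at 3 h (log2 change -0.96 ± 0.14, adjusted p = 0.000293), and so did the sum of HSPA1A and HSPA1B (log2 change -0.65 ± 0.14, adjusted p = 0.00522). At 12 h HSPA1B was not called (log2 change -0.24 ± 0.14, adjusted p = 0.255), except without MET∆14 12 h replicate 2 (-0.34). HSPA8 differed over the times (adjusted p = 0.0215), with a single call at 6 h (log2 change 0.50 ± 0.18, adjusted p = 0.0484) that was lost when any 1 library other than wt MET 0 h replicate 2, MET∆14 12 h replicate 1 or MET∆14 12 h replicate 2 was left out (log2 change 0.32 to 0.52), or with DESeq2's size factors (0.48). The HSPA8 difference at 12 h (log2 change 0.38) was called without wt MET 0 h replicate 2 (0.54) or MET∆14 12 h replicate 1 (0.55), or with no expression filter (0.39). HSPB1 was called over the times (adjusted p = 0.0355) and at no single time (log2 change 0.51, 0.40 and -0.23 at 3, 6 and 12 h). It was called at 3 h without MET∆14 12 h replicate 1 (0.52) or MET∆14 12 h replicate 2 (0.49), or with no expression filter (0.50). The 6 h difference was called without MET∆14 12 h replicate 1 (0.41) or MET∆14 12 h replicate 2 (0.37), and that at 12 h without MET∆14 12 h replicate 2 (-0.53). For HSP90AA1, HSPA1A and BAG3 the difference was not called (adjusted p = 0.658, 0.271 and 0.232). The HSP90AA1 differences were -0.18, -0.12 and -0.14 with an SE of 0.13 each.

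By time, 5 members were called for a different response at 3 h, 5 at 6 h and 3 at 12 h, beside 17.4%, 30.2% and 24% of all genes. These tests by time, and those of steps between successive times, were chosen after seeing the data. For the steps, 2 members were called from 3 to 6 h in wt MET cells (3.1% of all genes), HSPA1B (fell by 0.90) and DNAJB1 (fell by 0.35). The latter call was lost when any 1 library other than wt MET 0 h replicate 1, wt MET 0 h replicate 2, MET∆14 12 h replicate 1 or MET∆14 12 h replicate 2 was left out (log2 change -0.37 to -0.33), or with DESeq2's size factors (-0.34). From 6 to 12 h they were HSPA8 and DNAJB1 (fell by 0.68), beside 11.6% of all genes. With MET∆14, 2 were called from 3 to 6 h (9.77% of all genes), HSPD1 and DNAJB1 (fell by 0.40). The DNAJB1 call was lost without MET∆14 3 h replicate 2 (-0.39), MET∆14 6 h replicate 1 (-0.40) or MET∆14 6 h replicate 2 (-0.42), or with each line fitted alone (-0.42). From 6 to 12 h, 5 were called, all lower (18.6% of all genes in either direction): HSPA8, HSPH1, DNAJB1, HSPD1 and HSPB1. The fall of DNAJB1 (by 0.28, or 0.43 without MET∆14 12 h replicate 2) was not called when any 1 library other than wt MET 0 h replicate 1, wt MET 0 h replicate 2 or MET∆14 12 h replicate 2 was left out (log2 change -0.29 to -0.16), or with DESeq2's size factors (-0.27) or with each line fitted alone (-0.28).

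**Figure D4:**
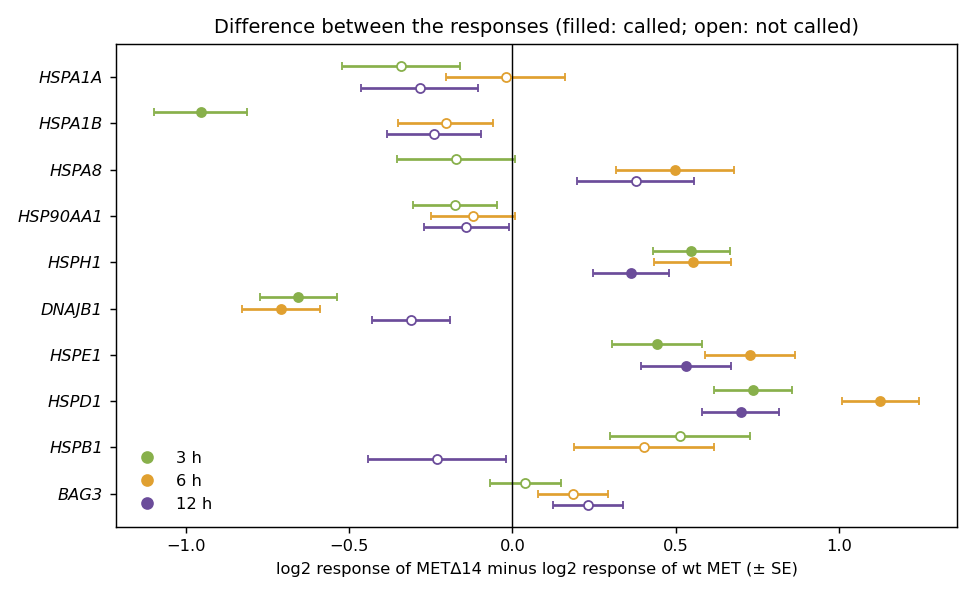
Log2 response to HGF in MET∆14 cells minus that in wt MET cells for each member at 3, 6 and 12 h, with bars of ± SE; filled symbols mark adjusted p under 0.05. HSPD1, HSPE1 and HSPH1 are filled and right of 0 at every time, and DNAJB1 lies left of 0 at every time, filled at 3 and 6 h.

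A model with line and time as additive terms, the formula of the study, gives 1 response for both lines. Here it was fitted in edgeR to these lines only, whereas the study used DESeq2 and also had cells with amplified wt MET. In this fit 7 of 10 members were called, beside 30.6% of all genes. The count was 4 without wt MET 6 h replicate 1, wt MET 6 h replicate 2, wt MET 12 h replicate 2, MET∆14 0 h replicate 1, MET∆14 0 h replicate 2 or MET∆14 6 h replicate 1. HSPA8 had 1.05, 1.01 and 0.41 on the log2 scale at 3, 6 and 12 h (adjusted p = 0.000128). HSPH1 had 0.84, 0.82 and 0.47 (adjusted p = 0.000125). HSP90AA1 and DNAJB1 were also called (adjusted p = 0.000345 and 0.000473), and HSPA1A, HSPA1B and HSPB1 were called near the threshold (adjusted p = 0.0442, 0.0461 and 0.0459). HSPD1, called at every time in MET∆14 cells against 0 h, was not called in this model (adjusted p = 0.355), nor was HSPE1 (adjusted p = 0.8) or BAG3 (adjusted p = 0.107).

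The rest of the chaperone network was described with 9 lists of 82 other genes, 77 of them tested. Unlike those of the members, the calls of single genes outside the members were not checked with libraries left out or under other settings. Counts are of genes called. With wt MET, 6, 9 and 17 were higher and 3, 8 and 8 lower at 3, 6 and 12 h. Of all genes tested, 10.3%, 16.4% and 16.9% were higher there and 7.16%, 17.8% and 18.2% lower. With MET∆14, 29, 37 and 30 were higher and 7, 10 and 8 lower at 3, 6 and 12 h. The shares of all genes there were 15.5%, 21.6% and 18.3% higher and 16.1%, 22.5% and 20.1% lower. The counts of each list below have to be read against these shares. The median log2 fold change of the tested genes at 6 h was -0.0098 in wt MET cells and 0.27 in MET∆14 cells, against -0.053 and -0.039 over all genes.

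Of HSP90AB1 and the HSP90 cochaperones (14 genes), 6, 9 and 11 were higher and 0, 0 and 1 lower at 3, 6 and 12 h in MET∆14 cells. For wt MET cells, 0, 1 and 1 were higher and 1, 3 and 3 lower at 3, 6 and 12 h. CHORDC1, an HSP90-binding protein, went from 33.0 and 33.3 CPM at 0 h to 76.2 and 71.0 at 6 h in MET∆14 cells (log2 change 1.15 ± 0.10, adjusted p = 5.97e-07). It went from 99.0 and 97.1 to 120.5 and 122 in wt MET cells (log2 change 0.31 ± 0.10, adjusted p = 0.0275). PPP5C, a phosphatase bound to HSP90, rose in MET∆14 cells (log2 change 0.42 ± 0.074, adjusted p = 0.000332 at 6 h) and fell in wt MET cells (log2 change -0.51 ± 0.079, adjusted p = 0.000162). The cytosolic chaperonin CCT and prefoldin both take part in the folding of actin and tubulin. Of their 14 subunits, 6, 10 and 9 were higher and 0, 0 and 0 lower at 3, 6 and 12 h in MET∆14 cells, while in wt MET cells 1, 1 and 1 were higher and 0, 1 and 1 lower at 3, 6 and 12 h. The CCT subunit CCT2 had 93.7 and 93.2 CPM at 0 h and 186 and 192 at 6 h in MET∆14 cells (log2 change 1.02 ± 0.099, adjusted p = 1.14e-06). It was not called in wt MET cells (log2 change 0.09 ± 0.096, adjusted p = 0.512). The prefoldin subunit PFDN2 rose in both lines (0.44 and 0.78 at 6 h, adjusted p = 0.00191 and 1.41e-05).

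Of 12 other mitochondrial chaperones and proteases, 4, 7 and 4 were higher and 0, 0 and 0 lower at 3, 6 and 12 h in MET∆14 cells. For wt MET cells, 0, 1 and 4 were higher and 1, 3 and 1 lower at 3, 6 and 12 h. GRPEL1, the exchange factor of mitochondrial HSP70, had 42.2 and 39.1 CPM at 0 h, 96.1 and 92.3 at 3 h and 102 and 102 at 6 h in MET∆14 cells (log2 change 1.32 ± 0.12, adjusted p = 5.77e-07). With wt MET, it had 64.6 and 79.7 at 0 h and 80.5 and 74.8 at 6 h (log2 change 0.11 ± 0.12, adjusted p = 0.536). The responses differed (adjusted p = 0.000166). Its paralog GRPEL2 rose at 12 h in wt MET cells (log2 change 0.68 ± 0.089, adjusted p = 5.58e-05) and at 3 h in MET∆14 cells (log2 change 0.46 ± 0.091, adjusted p = 0.00126).

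The other HSP70-type genes (8 listed, 7 tested) were mixed in MET∆14 cells, where 2, 2 and 2 were higher and 2, 3 and 2 lower at 3, 6 and 12 h. For wt MET cells, 0, 1 and 2 were higher and 1, 0 and 0 lower at 3, 6 and 12 h. HSPA4, an HSP110-type exchange factor like HSPH1, went from 207 and 215 to 360.1 and 369 CPM at 6 h in MET∆14 cells (log2 change 0.79 ± 0.078, adjusted p = 1.28e-06). Its relative HSPA4L rose at 12 h in wt MET cells, from 102 and 107 to 135 and 125 CPM (log2 change 0.32 ± 0.08, adjusted p = 0.00658), and fell in MET∆14 cells, from 58.5 and 59.8 to 37.6 and 34.0 CPM at 6 h (log2 change -0.73 ± 0.084, adjusted p = 6.43e-06). Of 9 J-domain genes, 4, 5 and 3 were higher and 2, 3 and 1 lower at 3, 6 and 12 h in MET∆14 cells, while in wt MET cells 3, 3 and 5 were higher and 0, 0 and 0 lower at 3, 6 and 12 h. Among them, DNAJA4 had at most 1 count in any wt MET library and could not be called lower there. DNAJA1 rose at 3 h by 0.70 ± 0.082 (adjusted p = 3.45e-05) in wt MET and 0.62 ± 0.081 (adjusted p = 3.10e-05) in MET∆14 cells, and the responses were not shown to differ (adjusted p = 0.415). DNAJA2 rose at 3 h in MET∆14 cells (log2 change 0.74 ± 0.098, adjusted p = 3.53e-05) and was not called there in wt MET cells (log2 change 0.14 ± 0.096, adjusted p = 0.368). Of 8 genes for other BAG proteins, exchange and degradation, 4, 1 and 0 were higher and 0, 0 and 1 lower at 3, 6 and 12 h in MET∆14 cells. For wt MET cells, 2, 1 and 1 were higher and 0, 1 and 1 lower at 3, 6 and 12 h. STUB1, the ubiquitin ligase that binds HSP70 and HSP90, fell at 12 h in wt MET cells (log2 change -0.94 ± 0.14, adjusted p = 0.000114), and BAG1 fell at 12 h in MET∆14 cells (log2 change -0.59 ± 0.11, adjusted p = 0.000581).

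HSF1 itself moved in opposite directions. With wt MET, it had 84.2 and 90.4 CPM at 0 h, 86.5 and 78.0 at 3 h, 81.2 and 75.0 at 6 h and 65.3 and 61.4 at 12 h, and at 12 h it fell by 0.46 (SE 0.085, adjusted p = 0.000755). With MET∆14, it had 57.2 and 60.8 CPM at 0 h, 70.8 and 74.1 at 3 h, 78.9 and 81.3 at 6 h and 73.8 and 67.3 at 12 h, and it rose at 6 h (log2 change 0.44 ± 0.085, adjusted p = 0.000677). The responses differed between the lines (adjusted p = 0.00119). IER5, which binds HSF1, rose at 3 h in MET∆14 cells (log2 change 0.86 ± 0.10, adjusted p = 1.65e-05) and was not called in wt MET cells (log2 change -0.23 ± 0.10, adjusted p = 0.149). Of the 5 regulators listed, 2, 2 and 1 were higher and 1, 2 and 0 lower at 3, 6 and 12 h in MET∆14 cells, while in wt MET cells 0, 0 and 1 were higher and 0, 0 and 1 lower at 3, 6 and 12 h. Of 4 further HSF1 target genes, 1, 1 and 0 were higher and 2, 1 and 1 lower at 3, 6 and 12 h in MET∆14 cells. For wt MET cells, 0, 0 and 1 were higher and 0, 0 and 1 lower at 3, 6 and 12 h. The collagen chaperone SERPINH1 fell at 12 h in wt MET cells (log2 change -0.44 ± 0.097, adjusted p = 0.00267).

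Of 15 chaperones of the endoplasmic reticulum, which serve secreted and membrane proteins, 1, 9 and 3 were higher and 0, 0 and 0 lower at 3, 6 and 12 h in MET∆14 cells, while in wt MET cells 0, 1 and 3 were higher and 1, 1 and 1 lower at 3, 6 and 12 h. DNAJB11, a J-domain protein of the reticulum, rose at 6 h in MET∆14 cells (log2 change 0.47 ± 0.078, adjusted p = 0.000183), and the disulphide isomerase PDIA4 fell at 12 h in wt MET cells (log2 change -0.82 ± 0.11, adjusted p = 5.61e-05). All of these lists, like the members, describe levels of RNA and not of protein.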

How the data were processed

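The members and all gene lists were chosen with earlier results of these data known. The authors trimmed adapters, mapped reads with STAR to hg38 and deposited estimated counts per gene as whole numbers, without normalization. Per the labels' processing notes the tools were STAR 2.5.0 and RSEM 1.3.2; the counting step, annotation and use of strand are not given in the sources used here. Columns of wt MET libraries carry a variant of the line name and were matched by the rest of the name.

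The tests used edgeR 4.0.16 in R 4.3.3 (filterByExpr, minimum count 10 and minimum total count 15; TMM; robust quasi-likelihood fit with 1 coefficient per condition over 16 libraries; Benjamini-Hochberg over all genes tested, threshold 0.05). All 10 members were named. From each list, the gene with the smallest p over the 3 times in each line was named, given a mean log2 CPM of at least 3 and a call, plus HSF1 and MET; 1 gene that this rule names is not reported here. RPKM used GENCODE v44 canonical transcript lengths. The code was tested on simulated data. Alternatives were DESeq2 1.42.0, its size factors in edgeR, no filter, each line fitted alone, a replicate block, HSPA1A and HSPA1B summed, and each library left out; summing HSPE1 with HSPE1-MOB4, and tests by time, were added after seeing the data. Figures were drawn with matplotlib 3.10.9. The study also describes cells with amplified wt MET, but the 16 libraries used here include none from them.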

Additional observations from a re-analysis of the deposited data

Results flagged for a closer look

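For 7 of the 10 members the response to HGF differed between the lines in edgeR's quasi-likelihood F test over 3, 6 and 12 h, beside 37.6% of all genes tested. The adjusted p was 3.55e-05 for HSPD1, 0.000471 for HSPA1B, 0.000734 for DNAJB1, 0.00396 for HSPE1, 0.00451 for HSPH1, 0.0215 for HSPA8 and 0.0355 for HSPB1. The largest differences were higher in MET∆14 cells for HSPD1 (1.13 on the log2 scale at 6 h), HSPE1 (0.73 at 6 h), HSPH1 (0.55 at 6 h), HSPB1 (0.51 at 3 h, not called at that time with all libraries) and HSPA8 (0.50 at 6 h), and lower for HSPA1B (-0.96 at 3 h) and DNAJB1 (-0.71 at 6 h). The HSPB1 difference changed sign over the times, to -0.23 at 12 h, which was not called with all libraries. The HSPA1B value depends on the split of reads with HSPA1A; the sum of both gave -0.65 ± 0.14 (adjusted p = 0.00522). Groups had 2 libraries, so no library was tested for standing apart from its group.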

How the results depend on the processing

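Under the 23 other settings, 16 of which leave out 1 library, 3180 values were computed for 140 fold changes of the members. Of these, 2916 kept direction and side of the threshold, 161 lost a call, 70 gained one and 33 turned direction, 0 of them with a call in either fit. Values that turned are given here without 29 steps between successive times that were not called and are not reported; among the other 111 fold changes, 14 values turned. No alternative that keeps all libraries moved a count of members called by over 1.5 times. Genes other than the members were not checked under the other settings. With DESeq2 the counts at 3, 6 and 12 h were 6, 6 and 2 in wt MET and 7, 8 and 9 in MET∆14 cells, and 7 members differed between the lines. As each library was left out, the counts at the same times ranged from 5 to 7, 4 to 8 and 1 to 4 in wt MET cells and from 4 to 8, 6 to 9 and 6 to 10 in MET∆14 cells. They ranged from 5 to 10 and 7 to 10 at any time in wt MET and MET∆14 cells, from 5 to 7 for a different response, 8 to 9 at 0 h and 4 to 6 in the additive model. Directions turned, without a call, for HSPA1A in wt MET cells at 12 h with HSPA1A and HSPA1B summed (-0.0069). Over left-out libraries they turned in wt MET cells for HSPA1A at 3 h (-0.0123 to 0.337) and 12 h (-0.154 to 0.226), HSPA1B (-0.115 to 0.0119), DNAJB1 (-0.0941 to 0.004) and BAG3 (-0.0693 to 0.0206) at 12 h. They turned too for HSPE1 between the lines at 0 h (-0.195 to 0.0225), and for the difference between the responses of BAG3 at 3 h (-0.0305 to 0.0651), HSPA1A at 6 h (-0.218 to 0.133) and HSPB1 at 12 h (-0.534 to 0.0117); the cause was not tested. Samples with the same replicate number in the labels did not deviate together (correlation of their deviations -0.159 to 0.111 over 28 pairs of conditions), so the numbers were not taken as pairs. With the replicate number as a block, 6 members instead of 7 were called at any time in wt MET cells and 5 instead of 7 in the additive model, and the counts at each time were 5, 6 and 2 in wt MET and 8, 8 and 9 in MET∆14 cells. The lowest level of any member was that of HSPB1 in wt MET cells (16.3 and 15.6 CPM at 6 h).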

Other observations

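Of the small heat shock proteins other than HSPB1 (8 listed, 4 tested), 0, 1 and 1 were higher and 0, 0 and 0 lower at 3, 6 and 12 h in wt MET cells. For MET∆14 cells, 0, 0 and 0 were higher and 0, 1 and 2 lower at 3, 6 and 12 h. Of all genes tested, 10.3%, 16.4% and 16.9% were higher and 7.16%, 17.8% and 18.2% lower in wt MET cells. The shares in MET∆14 cells were 15.5%, 21.6% and 18.3% higher and 16.1%, 22.5% and 20.1% lower. HSPB8, which forms a complex with BAG3, moved in opposite directions in the lines. In wt MET cells it had 140.3 and 171 CPM at 0 h, 183 and 176 at 3 h, 206 and 204 at 6 h and 219 and 210.4 at 12 h, and it rose at 12 h (log2 change 0.46 ± 0.092 SE, adjusted p = 0.00126, edgeR). In MET∆14 cells it had 13.7 and 12.8 CPM at 0 h, 10.3 and 10.7 at 3 h, 5.02 and 4.07 at 6 h and 3.72 and 4.17 at 12 h, and it fell at 12 h (log2 change -1.76 ± 0.15, adjusted p = 5.77e-07). The responses differed (adjusted p = 5.42e-07).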
